A study of Mus musculus with 8 samples.

Results

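The locus described here is a stretch of mouse chromosome 11 that carries Stat5b, Stat5a and Stat3, 3 neighbouring genes of 1 transcription factor family. Its members are the phosphorylated STAT3 (pSTAT3) peaks that overlap chr11:100620000-100830000 on mm9, a window of 210 kb. The rule found 4 distinct sites of 5343 sites with an exact position in the 6 peak lists of the series, and those 4 sites account for 7 listed peaks. Every site was 400 bp wide, and together they covered 1600 bp, or 0.762% of the window.

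Chromatin immunoprecipitation and sequencing were carried out in mouse embryonic fibroblasts with an antibody against STAT3 phosphorylated on Tyr-705. All groups share the STAT3-/- genotype and re-express either STAT3α, the full-length form, or STAT3β, a shorter splice product without the transactivation domain at the C terminus, under 1 nM 4-hydroxytamoxifen for at least 48 h and puromycin selection. Cells were kept without serum for 16 h and received human oncostatin M (OSM) at 10 ng/mL for 0, 30 or 180 min. Each combination of spliceform and time gave 1 peak list, from merged reads of duplicates, so STAT3α contributed 3 lists and STAT3β contributed 3, and the 2 input DNA samples had no list used here. Each spliceform is represented by 1 cell line, and a difference between the spliceforms cannot be told apart from a difference between the lines. The labels do not say which part of Stat3 the STAT3-/- alleles lack. The lists give positions and no expression values, so the fibroblast label could not be checked against marker genes.

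STAT proteins are latent cytoplasmic factors. Cytokine receptors recruit them, JAK kinases phosphorylate a tyrosine near their C terminus, and the dimers that form move to the nucleus and bind DNA. OSM, a cytokine of the interleukin-6 family, signals through receptors that contain gp130, and STAT3 is a main transducer of that signal. STAT3 is known to bind and activate its own promoter, which makes Stat3 one of its own targets. STAT5A and STAT5B are closely related products of a gene duplication and transmit signals of prolactin, growth hormone and several interleukins. In RefSeq's GRCm38 annotation the protein-coding genes run in the order Ghdc, Stat5b, Stat5a, Stat3 and Cavin1 with rising position. Stat5b lies on the minus strand and Stat5a on the plus strand, so their starts face each other, and Stat3 lies on the minus strand, so the ends of Stat5a and Stat3 face each other. Cavin1 encodes a coat protein of caveolae.

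STAT dimers bind a palindrome of the form TTCNNNGAA, and sequences of the looser form TTNNNNNAA can also be bound. The 250 bases before the annotated start of Stat3 and of a start inside Stat5b are printed. Among the windows of Stat3, Stat5a and Stat5b, only these hold TTNNNNNAA, a form chosen after seeing the data. They are RefSeq sequences of GRCm38.p6, 5′ to 3′ on the minus strand, with TTNNNNNAA in capitals. The peaks are on mm9, no genome of that build was used, and these letters were not aligned with the peaks.
Stat3, chr11:100939541-100939790: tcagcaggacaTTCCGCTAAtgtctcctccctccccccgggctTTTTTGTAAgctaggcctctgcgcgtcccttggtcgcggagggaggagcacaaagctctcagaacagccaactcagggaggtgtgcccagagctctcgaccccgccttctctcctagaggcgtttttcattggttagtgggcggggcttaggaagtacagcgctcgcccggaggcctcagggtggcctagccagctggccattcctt
Stat5b, chr11:100822571-100822820: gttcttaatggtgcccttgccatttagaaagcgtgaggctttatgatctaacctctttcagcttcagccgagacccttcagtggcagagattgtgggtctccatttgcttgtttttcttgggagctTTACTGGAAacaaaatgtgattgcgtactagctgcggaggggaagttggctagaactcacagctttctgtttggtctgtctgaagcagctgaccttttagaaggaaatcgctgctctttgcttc
Stat3 has 1 promoter in the RefSeq table, and Stat5a and Stat5b have 2 each. TTCNNNGAA, which reads the same on both strands, was in none of these 5 windows, and 7.02% of the 32841 promoter windows of the same length in the table hold it. TTNNNNNAA, which includes every TTCNNNGAA, was found at positions -239 and -207 from the Stat3 start and at -124 from the internal Stat5b start. It was not in either Stat5a window or in the window of the other Stat5b start, and 55.3% of all promoter windows hold it. The windows were rich in G and C, at 60.8% for Stat3, 57.6% and 68.0% for Stat5a and 82.0% for the other Stat5b start, against a mean of 53.2% over all windows. The internal Stat5b start had 46.4%.

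At 30 min of OSM the window held 1 peak in STAT3α cells and 4 peaks in STAT3β cells. At 180 min it held 1 peak in STAT3α cells and 1 in STAT3β cells, at the same position. The single STAT3α peak of 30 min was thus listed again at 180 min (1 of 1, interval 2.50 to 100%), against 0.940% of all STAT3α peaks of 30 min. Of the 4 STAT3β peaks, 1 was listed again (25.0%, interval 0.631 to 80.6%), against 3.03% of all STAT3β peaks of 30 min. With the window extended by 100 kb on each side, the shares listed again were 25.0% for STAT3α and 16.7% for STAT3β. With 1 and 4 peaks these shares carry little weight, and the intervals (95%, exact binomial) count sites only. At 0 min no peak with an exact position lay in the window for either spliceform. Positions as high as those of the window are written rounded in the 0 min lists. An exact one could therefore not occur there, and its absence says nothing about binding before OSM. The rounded positions are described further below. The complete lists held 9, 3725 and 40 peaks for STAT3α at 0, 30 and 180 min, and 12, 3891 and 120 peaks for STAT3β. The lists hold no read numbers, heights or p-values, so depth is unknown, strength could not be compared, and a site missing from a list is not shown to be unbound.

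**Figure D1:**
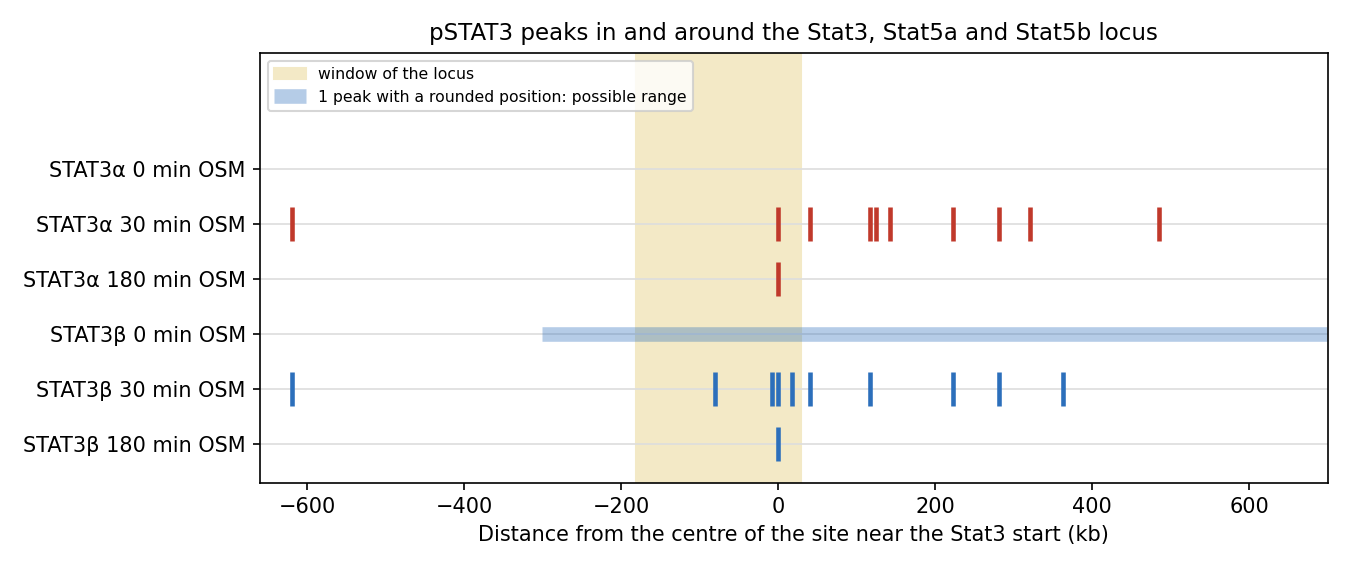
Peaks of the 6 lists (rows) by distance in kb from the centre of the site near the Stat3 start, with the 210 kb window shaded and each vertical mark standing for 1 peak. Within the window the STAT3β list at 30 min has 4 marks and the STAT3α list 1, and both 180 min lists have the mark at 0 kb alone. The pale bar is the range, 100.5 to 101.5 Mb, in which the rounded STAT3β peak at 0 min can lie.

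The site near the start of Stat3 was the one shared by both spliceforms and by both times. It lay at chr11:100800888-100801287, and the window's definition places the Stat3 start near 100.80 Mb. The STAT3α lists at 30 and 180 min held it, as did the STAT3β lists at 30 and 180 min, which makes 4 of the 6 lists. Since it was listed in STAT3-/- cells, reads from both lines were assigned to this position. Of the 5338 sites listed at 30 min for either spliceform, 27 (0.506%) were in both 30 min and both 180 min lists, and the Stat3 site was 1 of them. Another 8 sites were in both 30 min lists and in the 180 min list of STAT3α alone, and 85 were in both 30 min lists and in the 180 min list of STAT3β alone.

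Of the 26 other sites with the same listing, 7 had no further 30 min site within 105 kb, which is the half-width of the window, and 10 had 3 or more. The median number of further sites was 1.5 and the highest was 11. The Stat3 site had 4, of which 3 were in the STAT3β list alone and the fourth, beyond the window's upper edge, was in both lists. Among the other 26 sites, 6 had neighbours listed for STAT3α alone and none for STAT3β alone, 6 had the reverse, 5 had both kinds and 9 had neither.

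The other 3 sites of the window were listed for STAT3β at 30 min and in no other list. The nearest to the Stat3 start was chr11:100792436-100792835, 8.45 kb below the shared site. That is the side towards which Stat3, a minus-strand gene, is transcribed. The gene is known to be longer than this distance, so with a start near 100.80 Mb the site would lie within Stat3. It is called the site within Stat3 below, although no gene model of mm9 was used to check this. The second, chr11:100818547-100818946, lay 17.7 kb above the shared site, on the side of Cavin1, which is upstream of Stat3. Both distances are between starts of sites on mm9.

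The third, chr11:100720406-100720805, lay 80.5 kb below the shared site and 72.0 kb below the site within Stat3. It was the only site of the window on the far side of Stat3, where Stat5a and Stat5b lie. No gene model of mm9 was used here, so it is not assigned to Stat5a or to Stat5b. On GRCm38 the promoter windows begin at 100859406 and 100860234 for Stat5a and at 100822571 and 100850582 for Stat5b. The Stat3 window begins at 100939541. If the shared site lies at the Stat3 start and this spacing holds on mm9, a Stat5a start is the nearest of these starts. The nearest STAT3α peak at 30 min to chr11:100720406-100720805 was the shared site itself. No peak at 180 min was listed on the Stat5 side for either spliceform.

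Of the 4 sites of the window listed at 30 min, 0 were in the STAT3α list alone, 1 (25.0%, 95% exact binomial interval 0.631 to 80.6%) was in both lists and 3 (75.0%, interval 19.4 to 99.4%) were in the STAT3β list alone. Over all 5338 sites at 30 min, 27.1% were in the STAT3α list alone, 42.7% in both lists and 30.2% in the STAT3β list alone. On chromosome 11, with 427 such sites, the shares were 25.3%, 45.4% and 29.3%. The interval for 0 of 4 sites reaches 60.2%, and the intervals of all 3 shares include the share of the series. These Clopper-Pearson intervals cover counting over sites only, and no test was run on so few sites.

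Outside the window, sites for STAT3α alone were listed too. Within 500 kb on each side of the window 10 sites were listed at 30 min, 4 for STAT3α alone, 5 for both spliceforms and 1 for STAT3β alone. Of these, 1 lay below the window and 9 above it. The nearest site above started at 100841200, 11.2 kb beyond the window's edge, and was in both 30 min lists, while the last site inside ended 11.1 kb before that edge. The nearest site below started at 100181636, in both 30 min lists, and 438 kb of unlisted sequence separated it from the window. The sites for STAT3α alone started at 100925346, 100943779, 101121432 and 101286215, and the site for STAT3β alone at 101163360. No site of the flanks was listed at 180 min.

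**Figure D2:**
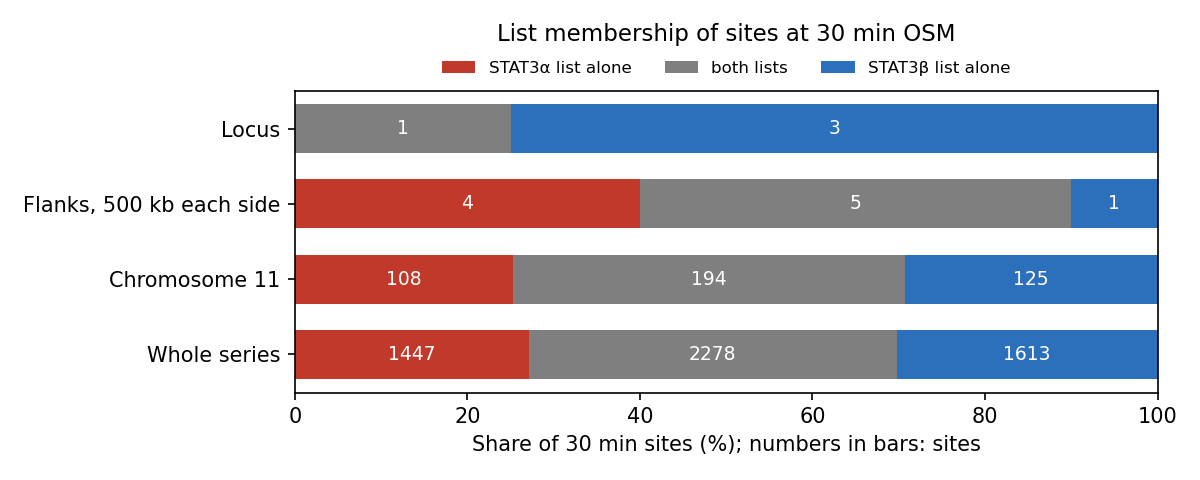
Share of 30 min sites (horizontal axis, %) in the STAT3α list alone, in both lists and in the STAT3β list alone, for the locus, its flanks, chromosome 11 and the whole series, with the number of sites in each bar. The locus has 3 of 4 sites in the STAT3β list alone, and the flanks have 4 of 10 in the STAT3α list alone.

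The 3 sites for STAT3β alone lay at unequal distances from the shared Stat3 site, which was the nearest STAT3α peak at 30 min for the site within Stat3 (8.45 kb), the site on the Cavin1 side (17.7 kb) and the site on the Stat5 side (80.5 kb). Over the 1613 sites of the series listed for STAT3β alone, the median distance was 110 kb, 15.3% lay within 10 kb, 21.3% within 20 kb and 47.7% within 100 kb. On chromosome 11 the median over 125 such sites was 80.5 kb, and 22.4%, 28.0% and 55.2% lay within these distances. In the window 1 of the 3 lay within 10 kb, 2 within 20 kb and 3 within 100 kb. The window itself holds the STAT3α peak and so limits how far from it a member can lie, and 3 sites do not set the locus apart from the chromosome.

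The 4 sites of the window correspond to 19.0 sites per Mb (exact Poisson interval 5.19 to 48.8 per Mb), against 2.10 per Mb over the listed span of all chromosomes and 3.61 per Mb on chromosome 11. For STAT3α the window had 4.76 peaks per Mb (interval 0.121 to 26.5) against 1.47 per Mb over all chromosomes and 2.55 on chromosome 11. For STAT3β it had 19.0 peaks per Mb (interval 5.19 to 48.8) against 1.53 per Mb over all chromosomes and 2.70 on chromosome 11. Of 12102 tiles of 210 kb laid over the listed span, 251 (2.07%) held 4 or more sites and 9035 (74.7%) held none. Tiles with 3 or more sites for STAT3β alone and none for STAT3α alone numbered 30 (0.248%), and tiles with the reverse numbered 29 (0.240%). The window was drawn around genes known to have sites, so these densities describe it and were not tested.

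**Figure D3:**
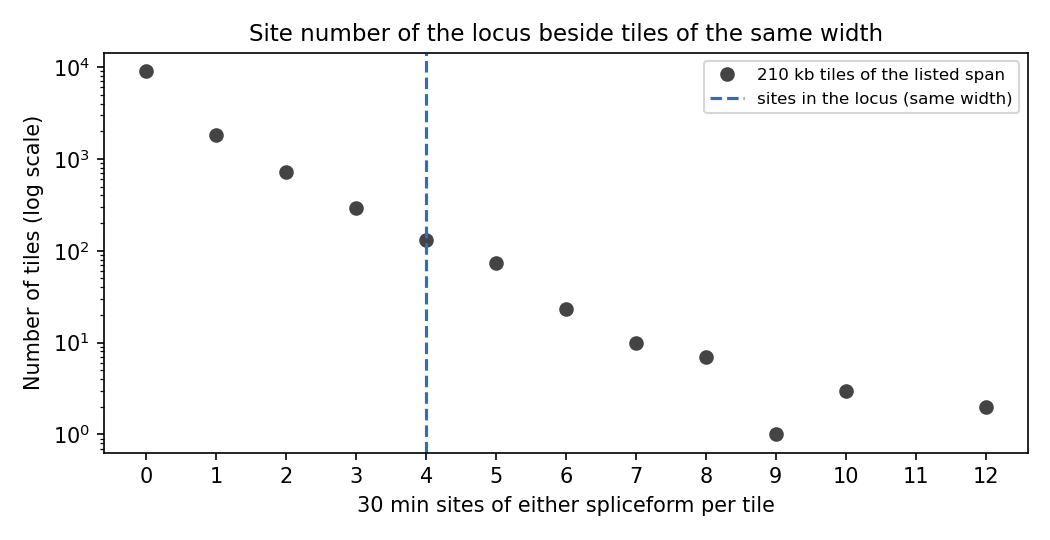
Number of 210 kb tiles (vertical axis, log scale) by the number of 30 min sites they hold (horizontal axis), each point standing for 1 site number. The dashed line marks the 4 sites of the locus, and 251 of 12102 tiles held 4 or more.

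The unstimulated STAT3β list held 1 peak on chromosome 11 whose position was written as 101 Mb, rounded to 3 digits, and it is kept apart here. Its position can lie anywhere from 100.5 to 101.5 Mb, which includes the whole window. That range holds 13 sites with exact positions, of which STAT3α cells had 9 and STAT3β cells had 9 at 30 min. Only the Stat3 start site among them was listed at 180 min, for both spliceforms. Of the 8 STAT3β peaks with exact positions at 0 min, 7 were listed for STAT3β at 30 min and 5 at 180 min. Of the 7 such STAT3α peaks, 4 were listed for STAT3α at 30 min and 5 at 180 min. These counts do not place the rounded peak. Which site the rounded peak belongs to cannot be told from the list, so a peak at the Stat3 start without OSM is not resolved for STAT3β. The STAT3α list at 0 min held no rounded position on chromosome 11. It held no exact one in the window either, but positions this high are written rounded in the 0 min lists, so that absence adds nothing.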

How the data were processed

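pSTAT3 ChIP-seq peak lists of 6 samples were analysed. Reads of duplicate preparations were merged, per the labels, and the authors deposited 1 list per sample, with chromosome, start, end and name of each peak and no score or signal value. The build was mm9, and the tools included MACS2 2.1.1.20160309, HOMER 4.9 and STAR 2.5.0a, per the submitters' processing notes. What each tool did, the peak threshold and how the input was used: not given in the sources used here.

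Starts were shifted to count from 1. Groups came from the sample titles. Peaks were shared at 1 bp of overlap, and no overlapping pair of the 30 min lists had unequal coordinates (0 pairs). All sites in the window are named, with the nearest outside each edge. The window and members were chosen with earlier results of these data known. With 1 list per group there is no replicate error and no test. The planned count of pathway genes needs an annotation of mm9 and was not made. RefSeq tables of GRCm38 gave gene order, strands and promoters, not positions of peaks. The overlap function was tested on simulated peaks. Python 3.11.15, numpy 2.4.6, scipy 1.17.1 and matplotlib 3.10.9 were used.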

Additional observations from a re-analysis of the deposited data

How the results depend on the processing

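Of 29 alternative values for 12 results, 25 stayed within 1.5 times the count or within the counting interval, and 4 moved. These intervals are wide with 1 to 4 sites, so staying within them says little about stability. Extending the window by 100 kb on each side gave 4 STAT3α and 6 STAT3β peaks at 30 min in place of 1 and 4, and 42.9% of the sites were then in both lists in place of 25.0%. The share of 30 min peaks listed again at 180 min was then 25.0% for STAT3α and 16.7% for STAT3β, in place of 100% and 25.0%. The size of the difference between the spliceforms thus depends on where the window ends. Counting rounded positions gave 1 STAT3β peak at 0 min in place of 0. With windows and tiles of 100 kb, 14.8% of tiles held as many sites as the window's centre (1 site), and with 500 kb 0.942% did (8 sites), in place of 2.07%. The shifted tiles, the chromosome 11 distances and the motif TTNNNNNAA were chosen after seeing the data. A stricter peak threshold could not be tried, because the lists have no score. No paired analysis was possible because each group has 1 list and the labels give no replicate numbers.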
